A study of Equus caballus with 2 samples.

Results

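IGFBP3-positive endometrial fibroblasts of the mare were examined after exposure to transforming growth factor beta 1 (TGF-β1). The cells were cultured fibroblasts of 4 mares, grown in serum-reduced and finally serum-free medium with bovine serum albumin. For the last 24 h the TGF-β1 group received 10 ng/ml human recombinant TGF-β1 and the control group received no supplement. For each treatment the cells of the 4 mares were pooled into 1 droplet library, so there was 1 library per condition, and library and condition cannot be told apart. MFGE8-treated cells were not analysed here. Transcripts were counted by unique molecular identifiers (UMIs, 1 per captured transcript), and cells were kept from 20000 UMIs and 3500 genes upwards if mitochondrial genes took less than 4% of the UMIs. The members were chosen by 2 measured values, at least 3 UMIs of IGFBP3 and 0 UMIs of AREG, in the TGF-β1 library. By this rule 895 of the 4513 kept cells of the TGF-β1 library were members, which was 19.8% (exact binomial 95% interval 18.7–21.0%), out of 8378 kept cells in both libraries. They were compared with the 1568 reference cells of the same library that held 0 UMIs of both IGFBP3 and AREG.

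IGFBP3 encodes a secreted protein that binds insulin-like growth factors in the extracellular fluid and limits their access to the IGF1 receptor. It is also a known target of TGF-β signaling in stromal cells. Fibroblasts exposed to TGF-β1 typically increase collagen, matrix-modifying enzymes and contractile proteins, and such cells are called myofibroblasts. AREG encodes amphiregulin, a ligand of the epidermal growth factor receptor. DLK1 encodes a membrane protein related to the Notch ligands, and CRABP2 encodes a carrier that delivers retinoic acid to its nuclear receptors.

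IGFBP3 and AREG chose the cells, so their values are a description and both genes were left out of the comparison and of its totals. Levels are given as summed counts per 1000000 UMIs (CPM), ratios are members over reference cells on the log2 scale, and ranges in parentheses are 95% intervals that cover counting error only. Cells are not replicates, so the differences carry no test and no p-value. The cells were not assigned to mares, so a difference between mares and a difference between cell states cannot be told apart. Doublets, which the study called from genotypes, were not removed. The members were deeper than the reference cells, with a median of 43862 against 40137.5 UMIs per cell and a 90th percentile of 78170.8 against 58355.4. Of the cell barcodes, 6 occurred in both deposited libraries and 2 in both sets of kept cells, and 1 member carried a barcode that was also found in the control library.

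The members carried the markers of fibroblasts. All 12 fibroblast markers were found, and VIM, COL1A1, COL1A2, COL3A1, DCN and SPARC were each detected in 100% of members thinned to 20000 UMIs. PDGFRA, PDGFRB and THY1 were detected in 26.8%, 59.4% and 73.1% of them. The summed level of the list was 29556 CPM in members and 27946 CPM in reference cells. DCN, LUM, PDGFRA, PDGFRB and FAP were lower in members and the other markers of the list higher, S100A4 most, at 3819 CPM against 2871 CPM. Of the 11 epithelial markers in the annotation, 4 were at 0 in the members, EPCAM among them, and CDH1 had 1 UMI, while the list summed to 9.83 CPM in members and 13.5 CPM in reference cells, mostly KRT7 and KRT8. The 10 endothelial markers summed to 3.79 and 3.69 CPM, with PECAM1 at 3 UMIs among all members. Of 12 immune markers, 7 were at 0, PTPRC among them, and the sum of 42.2 CPM against 42.9 CPM in reference cells was almost entirely CD68. The 10 smooth muscle and pericyte markers summed to 852 CPM in members and 874 CPM in reference cells, and the 3 mesothelial markers found summed to 41.9 CPM in both, mostly WT1. DES, desmin, made up most of the former sum, at 529 and 577 CPM. The members thus met the fibroblast label, and the sums of the lists for other cell types lay close to or below those of the reference cells. The 11 cycling markers found were higher, with 64.1 CPM in members against 37.4 CPM in reference cells. At equal depth, cells with at least 3 of these markers made up 3.13% of members (2.09–4.49%) and 1.72% of reference cells (1.14–2.496%). No cell type that lacks IGFBP3 was present, so free RNA in the droplets could not be measured.

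IGFBP3 was spread very unevenly over the cells. Members held between 3 and 241 IGFBP3 UMIs, with a median of 9 and quartiles of 5 and 19. Only 42 members held 50 or more, and these carried 24.2% of the members' IGFBP3 UMIs. In the whole TGF-β1 library, thinned to equal depth, the variance was 14.7 times the mean, and 60.4% of cells held no IGFBP3 UMI where a Poisson distribution of the same mean gives 11.5%. Without thinning, the tenth of cells with the most IGFBP3 held 67.9% of its UMIs. The level was 322 CPM in the members, 108 CPM in all kept cells of the TGF-β1 library and 3.69 CPM in the control library. In the control library only 44 of 3865 kept cells met the members' rule, which was 1.14% (0.828–1.53%). AREG was about as frequent at each level of IGFBP3. At equal depth, AREG was detected in 22.9% of cells with 0 IGFBP3 UMIs (21.3–24.5%), 24.2% of those with 1 (20.8–27.9%), 25.4% of those with 2 to 4 (21.96–29.1%) and 22.2% of those with 5 or more (18.96–25.7%).

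**Figure D1:**
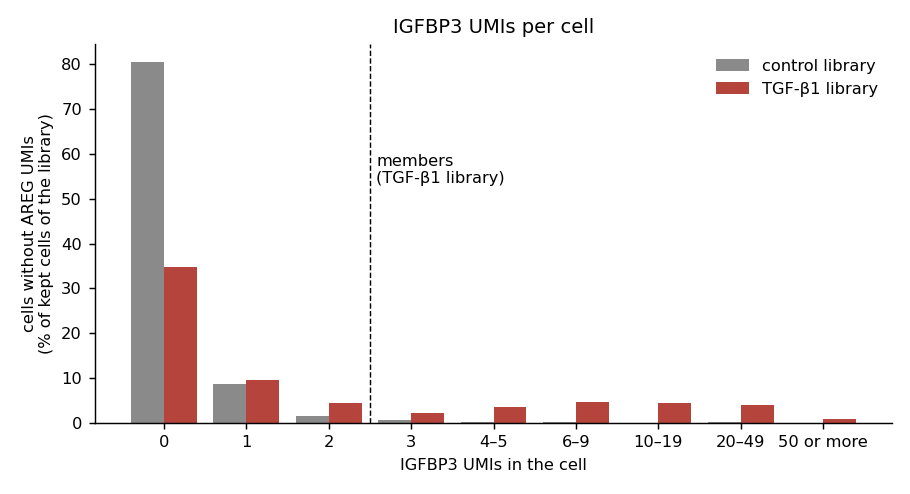
Share of kept cells (vertical axis, % of the kept cells of each library) that held no AREG UMI, by the number of IGFBP3 UMIs in the cell (horizontal axis), for the control library (grey) and the TGF-β1 library (red). To the right of the dashed line lie the members, 895 cells of the TGF-β1 library against 44 cells of the control library.

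The members were spread over the whole library but were more frequent in some of its cell groups. When the cells of the TGF-β1 library were clustered without IGFBP3 and AREG, 8 clusters formed, and members were found in each of them. They made up 30.2% of cluster 0 (27.8–32.8%), led by EPHA6, NLGN1 and KCNQ5, and 29.0% of cluster 2 (25.4–32.7%), led by PI3, CRABP2 and COMP. Their share was 9.87% in cluster 1 (8.23–11.7%), led by FGF14 and SOX6, and 3.795% in cluster 3 (2.42–5.64%), led by SPP1 and CCN3. Cluster 4, led by CA4 and NMNAT2 and with a high median of 73374 UMIs per cell, held 20.3% members (16.6–24.5%). The small cluster 6, led by CENPF and other mitotic genes, held 26.7% members (18.5–36.2%). Put the other way, cluster 0 contained 46.3% of the members and 27.3% of the reference cells, whereas cluster 1 contained 13.2% and 33.4% and cluster 3 contained 2.57% and 15.1%. The larger ratios below are therefore given with values within clusters 0, 1, 2 and 4, the 4 clusters with at least 50 cells of both groups, or after weighting the reference cells to the cluster shares of the members. The smaller ratios are often given for all clusters together, and 42 of the 104 genes chosen by rule for description had the opposite sign in at least 1 of the 4 clusters.

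**Figure D2:**
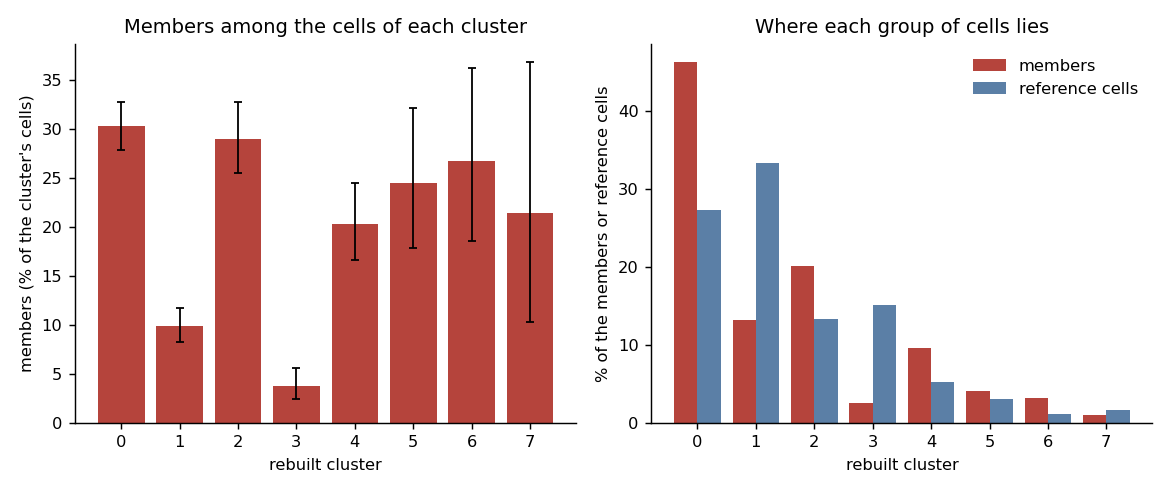
Left, members as a share of the cells of each rebuilt cluster (%, bars) with exact binomial 95% intervals (lines). Right, how the members (red) and the reference cells (blue) are distributed over the clusters (%), with the members mostly in clusters 0 and 2 and the reference cells mostly in clusters 0 and 1.

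Few genes separated the members from the reference cells by a large factor. In the 7612 genes whose mean reached 10 CPM, 19 were more than 1.5-fold higher in the members (0.25%) and 7 were more than 1.5-fold lower (0.092%), with a median ratio of 0.00 over all genes. Above 0 lay 51.7% of the genes and below 0 lay 48.3%, the shares against which the counts of the gene lists below are to be read. The counting interval, which leaves out the variation between cells, lay above 0 for 19.9% of the genes and below 0 for 17%. With reference cells weighted to the members' clusters, 10 genes were more than 1.5-fold higher and 11 lower, and 13 of the 26 genes stayed past the limit, 8 of the higher and 5 of the lower ones. The 26 genes were then examined in cells that the rule had not used, a comparison added after seeing the data. In the same library, 494 cells with at least 3 IGFBP3 UMIs and at least 1 AREG UMI were set against 651 cells with AREG UMIs and no IGFBP3. Of the 19 genes, 19 were higher in the IGFBP3-positive cells there (53% of all genes were), and 13 were more than 1.5-fold higher (0.486% of all genes). Of the 7 genes, 7 were lower there (47% of all genes were) and 2 were more than 1.5-fold lower (0.236% of all genes). Of the 104 genes chosen by rule, 5 had the opposite direction there with an interval that excluded 0, and 18 had an interval that included 0. These cells share the library, the mares and the clusters with the members, and the IGFBP3-positive ones were deeper, with a median of 54017.5 against 43818 UMIs.

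**Figure D3:**
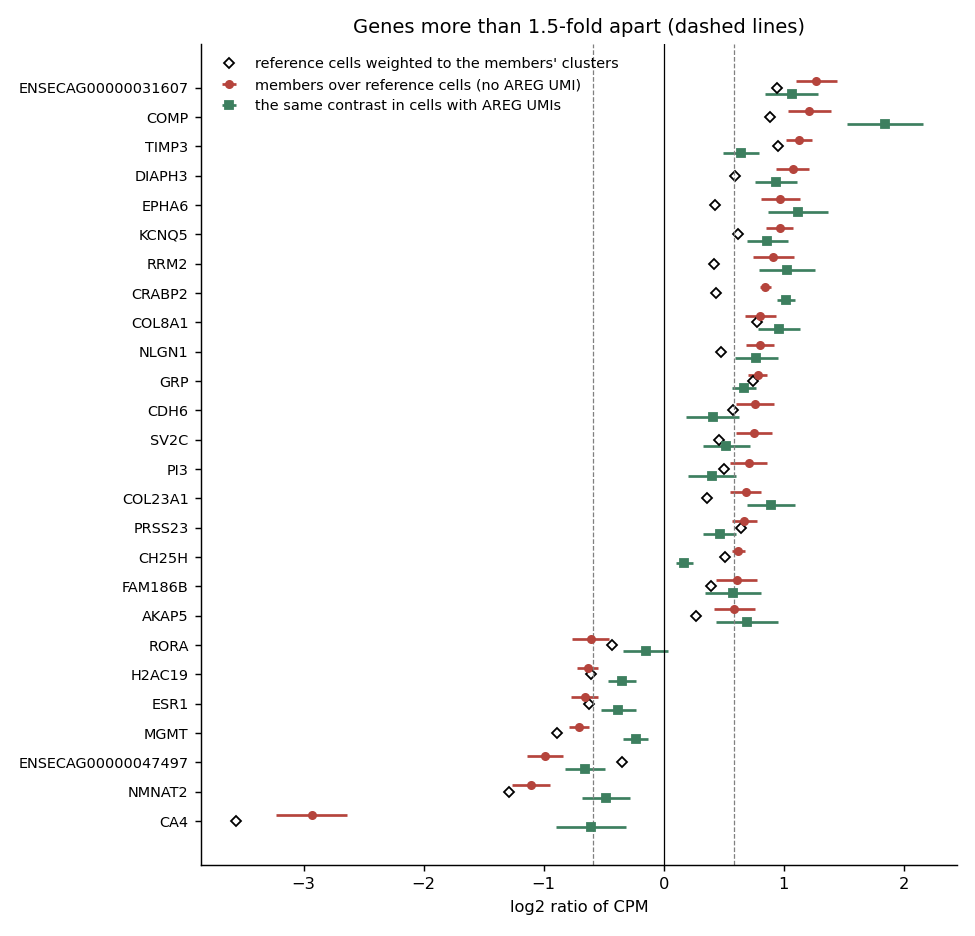
Log2 ratios (horizontal axis) of the 26 genes more than 1.5-fold apart between members and reference cells (red circles with 95% counting intervals), of the same genes in cells with AREG UMIs (green squares with intervals), and with reference cells weighted to the members' clusters (black diamonds, no interval). The 19 genes on the right stay above 0 and the 7 on the left stay below 0 in all 3 comparisons, and the interval of RORA in cells with AREG UMIs includes 0.

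Among the higher genes, COL8A1 and COL23A1 were 2 of the 13 other collagens compared and TIMP3 was 1 of the 17 matrix proteases and inhibitors. Over all genes compared, 0.25% were more than 1.5-fold higher and 0.092% lower. None of 8 fibrillar collagens, 24 collagen modifying enzymes and 20 genes of proteoglycans and elastic fibres was more than 1.5-fold apart, which in lists of this size is near those shares. TIMP3, an inhibitor of matrix metalloproteinases bound to the matrix, was at 37.5 CPM in members, 20.4 CPM in cells with 1 or 2 IGFBP3 UMIs and 17.1 CPM in reference cells, a log2 ratio of 1.13 (1.02–1.24). It was at 0.86 to 1.20 in the 4 clusters, 0.95 after weighting and 0.64 (0.50–0.79) in cells with AREG UMIs. The control library as a whole held 31.8 CPM of TIMP3, so that members were close to the control level and reference cells below it. COMP, cartilage oligomeric matrix protein, which binds collagen fibrils, was at 14.9 CPM against 6.44 CPM, a ratio of 1.21 (1.04–1.39), with cluster values from 0.02 to 1.84 and 0.88 after weighting. The control library held only 0.51 CPM of COMP. COL8A1, a chain of the short-chain collagen VIII, was at 23.5 CPM against 13.4 CPM, a ratio of 0.80 (0.67–0.94), with 0.44 to 0.85 in the clusters and 0.78 after weighting, and the control library held 3.27 CPM. COL23A1, a transmembrane collagen, was at 22.5 CPM against 14.0 CPM, with a ratio of 0.68 (0.55–0.81) that was 0.36 after weighting. PRSS23, a secreted serine protease, was at 35.9 CPM against 22.5 CPM, with a ratio of 0.67 (0.57–0.78) and 0.65 after weighting. PI3, or elafin, an inhibitor of elastase, was at 16.0 CPM against 9.78 CPM, was lower in cluster 2 at −0.32, and is named here after its values were seen.

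CRABP2, the second marker given for these cells, was the most abundant of the 19 genes. It was at 188 CPM in members, 136 CPM in cells with 1 or 2 IGFBP3 UMIs, 104 CPM in reference cells and 34.3 CPM in the control library. At equal depth it was detected in 68.9% of members, 47.7% of reference cells and 25.1% of control cells. The ratio of members over reference cells was 0.85 (0.80–0.89). Within the clusters it was 0.41, 0.63, 0.48 and 0.07 for clusters 0, 1, 2 and 4, and 0.44 after weighting, so part of the log2 difference went with cluster membership. In cells with AREG UMIs the level was 148 CPM with IGFBP3 and 73.2 CPM without, a ratio of 1.02 (0.95–1.09). Of the 12 retinoid genes compared, 7 were above 0 and 5 below, with a median of 0.15, which was 0.03 after weighting. FABP5, a fatty acid carrier that can also deliver retinoic acid, was at 75.6 CPM against 55.4 CPM, a ratio of 0.45 (0.38–0.52) with all 4 clusters between 0.08 and 0.47. RARRES1, a retinoic acid receptor responder, went the other way at 20.3 CPM against 26.6 CPM, with cluster values from −0.24 to 0.26.

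DLK1, the third marker, was uncommon and unevenly spread. With 13.0 CPM in members and 6.26 CPM in reference cells its mean was under the limit of 10 CPM, so it was not among the genes compared. The ratio was 1.06 (0.87–1.24). At equal depth it was detected in 11.1% of members and 6.25% of reference cells, and the tenth of members with the most DLK1 held 89.1% of its UMIs. Within clusters 0, 1, 2 and 4 the ratio was 0.47, 0.03, 0.94 and −0.41, and after weighting it was 0.50. In cells with AREG UMIs it was at 7.86 CPM with IGFBP3 and 2.11 CPM without. DLK1 was lower in the TGF-β1 library than in the control library, by a log2 ratio of −0.64, and in the control library it was lower in cells with at least 1 IGFBP3 UMI than in cells with none. The 5 Notch pathway genes compared did not move with it, with a median of −0.03 and values between −0.26 for DLL1, a Notch ligand, and 0.06 for RBPJ, the nuclear effector of the pathway. Imprinted growth genes, a list to which DLK1 also belongs, had 6 of 9 genes above 0 and a median of 0.09, led by GRB10, an adaptor that dampens insulin receptor signaling, at 248 CPM against 210.2 CPM, a ratio of 0.24 that was 0.04 after weighting.

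Other genes higher in the members encode proteins of the cell membrane. KCNQ5, a voltage-gated potassium channel, was at 32.8 CPM against 16.8 CPM, a ratio of 0.97 (0.85–1.08) that was 0.62 after weighting. EPHA6, an ephrin receptor, was at 16.7 CPM against 8.50 CPM, with a ratio of 0.97 (0.81–1.13) and 0.42 after weighting. CDH6, a cadherin, was at 15.6 CPM against 9.22 CPM and at 0.26 CPM in the control library, with a ratio of 0.76 (0.60–0.92) and 0.58 after weighting. NLGN1 and SV2C, best known from synapses and named here after their values were seen, had ratios of 0.80 and 0.75 that were 0.48 and 0.46 after weighting. EPHA6, NLGN1, KCNQ5 and COL23A1 are among the leading genes of cluster 0, where 46.3% of the members lie. Among secreted and metabolic products, GRP, gastrin-releasing peptide, was at 58.7 CPM against 34.2 CPM, a ratio of 0.78 (0.70–0.86), with 0.09 to 0.99 in the clusters and 0.74 after weighting. CH25H, which makes 25-hydroxycholesterol, was at 112 CPM against 72.5 CPM, a ratio of 0.62 (0.57–0.68) with 0.51 after weighting, and it was detected in 62.8% against 46.7% of cells at equal depth. In cells with AREG UMIs the ratio of CH25H was only 0.17 (0.10–0.25).

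Genes of the cell cycle lists lay above 0. DIAPH3, a formin that nucleates actin filaments and is on neither of these lists, was at 23.3 CPM against 11.1 CPM, a ratio of 1.07 (0.94–1.21), which was 0.81 once cycling cells were removed and 0.60 after weighting, with 0.35 to 0.89 in the clusters. RRM2, the small subunit of ribonucleotide reductase, was at 14.3 CPM against 7.57 CPM, a ratio of 0.92 (0.74–1.09), but 0.47 without cycling cells, 0.42 after weighting and −0.31 in cluster 1. RRM2 is on the S phase list, and it was named after its values were seen as well as for its list. All 15 S phase genes compared were above 0, with a median of 0.26 that became 0.13 without cycling cells and 0.06 after weighting. All 15 genes of G2/M and mitosis were also above 0, with a median of 0.14 that became 0.03 and 0.02. AKAP5, an anchoring protein of protein kinase A, FAM186B and ENSECAG00000031607, which has no symbol in the annotation, complete the 19 genes and were named after their values were seen. Their ratios were 0.59, 0.61 and 1.27, and after weighting 0.27, 0.39 and 0.95.

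The lower genes were led by CA4. CA4, a carbonic anhydrase at the cell surface, was at 2.34 CPM in members and 17.8 CPM in reference cells, a ratio of −2.93, but few cells carried it. It was detected in 2.23% of members and 4.21% of reference cells at equal depth, and in both groups the tenth of cells with the most CA4 held all of its UMIs. Among cells with AREG UMIs it was at 5.20 CPM with IGFBP3 and 7.92 CPM without, a ratio of −0.61 (−0.90 to −0.32). The ratio of members over reference cells was −4.20 in cluster 0 and −4.73 in cluster 4, and 0.09 and −0.37 in clusters 1 and 2. NMNAT2, an enzyme of NAD synthesis, was at 9.67 CPM against 20.8 CPM and differed in the same clusters, with −1.15 and −2.81 against 0.15 and 0.02, and with −0.48 in cells with AREG UMIs. Both genes lead cluster 4, and both are named here after their values were seen, as are RORA and ENSECAG00000047497.

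ESR1, the estrogen receptor α of the endometrial stroma, was lower in the members in each of the 4 clusters. It was at 19.8 CPM in members, 27.6 CPM in cells with 1 or 2 IGFBP3 UMIs, 31.3 CPM in reference cells and 55.4 CPM in the control library. The ratio was −0.66 (−0.77 to −0.54), with cluster values from −0.96 to −0.34 and −0.62 after weighting. In cells with AREG UMIs it was −0.38 (−0.53 to −0.23). MGMT, which repairs alkylated guanine in DNA, was at 36.3 CPM against 59.3 CPM, and at 148 CPM in the control library. Its ratio was −0.71 (−0.79 to −0.62), −0.89 after weighting and −0.23 (−0.34 to −0.13) in cells with AREG UMIs. H2AC19, a histone gene with near-identical copies whose reads the counting may not have separated, was at 34.2 CPM against 53.1 CPM, with −1.45 to −0.09 in the clusters and −0.60 after weighting. RORA, a nuclear receptor, was at 11.3 CPM against 17.2 CPM, a ratio of −0.61 that was 0.21 in cluster 4 and −0.43 after weighting. ENSECAG00000047497 had a ratio of −0.99, which was −0.35 after weighting, and it is among the leading genes of cluster 3, where only 2.57% of the members lie.

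Other genes were lower in all 4 clusters but less than 1.5-fold, and 10.8% of all genes compared were lower in all 4. TCEA3, a transcription elongation factor, had a ratio of −0.58 (−0.73 to −0.43), and ADM, the vasodilator adrenomedullin, had −0.56 (−0.67 to −0.46). ADM was at 24.2 CPM in members, 35.8 CPM in reference cells and 194.8 CPM in the control library. LCN2, lipocalin 2, an iron-binding defense protein, had −0.56, IRF9, which mediates type I interferon signals, −0.49 with −0.13 (−0.34 to 0.08) in cells with AREG UMIs, and SEMA3A, a secreted guidance protein, −0.47. The transcription factors SOX5 and FOXQ1 had −0.48 and −0.47, and SOX5 was the other way in cells with AREG UMIs, at 0.37. NREP had −0.45 and likewise was at 0.12 in cells with AREG UMIs. The mitochondrial transcript MT-CO3, a subunit of cytochrome c oxidase, was at 803 CPM against 1108 CPM, but its ratio of −0.47 was between −0.15 and −0.09 in the clusters and −0.15 after weighting.

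Many of these genes were also apart in the same direction between the libraries. Of the 19 higher genes, 16 were higher in the TGF-β1 library than in the control library (53.8% of all genes compared were), and 9 were more than 2-fold higher (2.94% of all genes). Of the 7 lower genes, 6 were lower in the TGF-β1 library (46.2% of all genes), and 4 were more than 2-fold lower (1.47% of all genes). Members thus lay further from the control library than reference cells did for COMP, CDH6, COL8A1, KCNQ5 and CRABP2 among the higher genes and for ESR1 and MGMT among the lower ones. TIMP3, with a library ratio of −0.41, and H2AC19, with 0.24, were the opposite. The level of the TGF-β1 library includes the members, and the limit of 10 CPM was set in that library, so part of this overlap was built in. COMP, EPHA6 and CDH6 are among the genes that reached the limit only with the members, at 6.44, 8.50 and 9.22 CPM in reference cells. The libraries have no replicate, so these are values of 2 libraries.

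For several genes the level was higher or lower in cells with more IGFBP3, though not at each step. From cells with 0 IGFBP3 UMIs to cells with 50 or more, CRABP2 went from 104 to 243 CPM, TIMP3 from 17.1 to 65.2 CPM, COL8A1 from 13.4 to 39.7 CPM and CH25H from 72.5 to 179 CPM. ESR1 went from 31.3 to 13.0 CPM over the same classes. DLK1 stayed between 5.56 and 7.67 CPM up to 5 IGFBP3 UMIs and was at 36.4 CPM in the 42 cells with 50 or more. CA4 was at 17.8 CPM with 0 UMIs, 5.04 CPM with 1 UMI and 8.52 CPM with 2 UMIs, and at 0.81 CPM (2 UMIs of CA4) with 50 or more. On either side of the members' limit, the 103 cells with 3 UMIs and the 203 cells with 2 UMIs held 140.5 and 149 CPM of CRABP2, 25.9 and 18.2 CPM of TIMP3, and 38.3 and 49.9 CPM of MGMT. The share of cells in cluster 1 went from 33.4% at 0 UMIs to 4.76% at 50 or more, while the share in cluster 0 went from 27.3% to 40.5%.

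**Figure D4:**
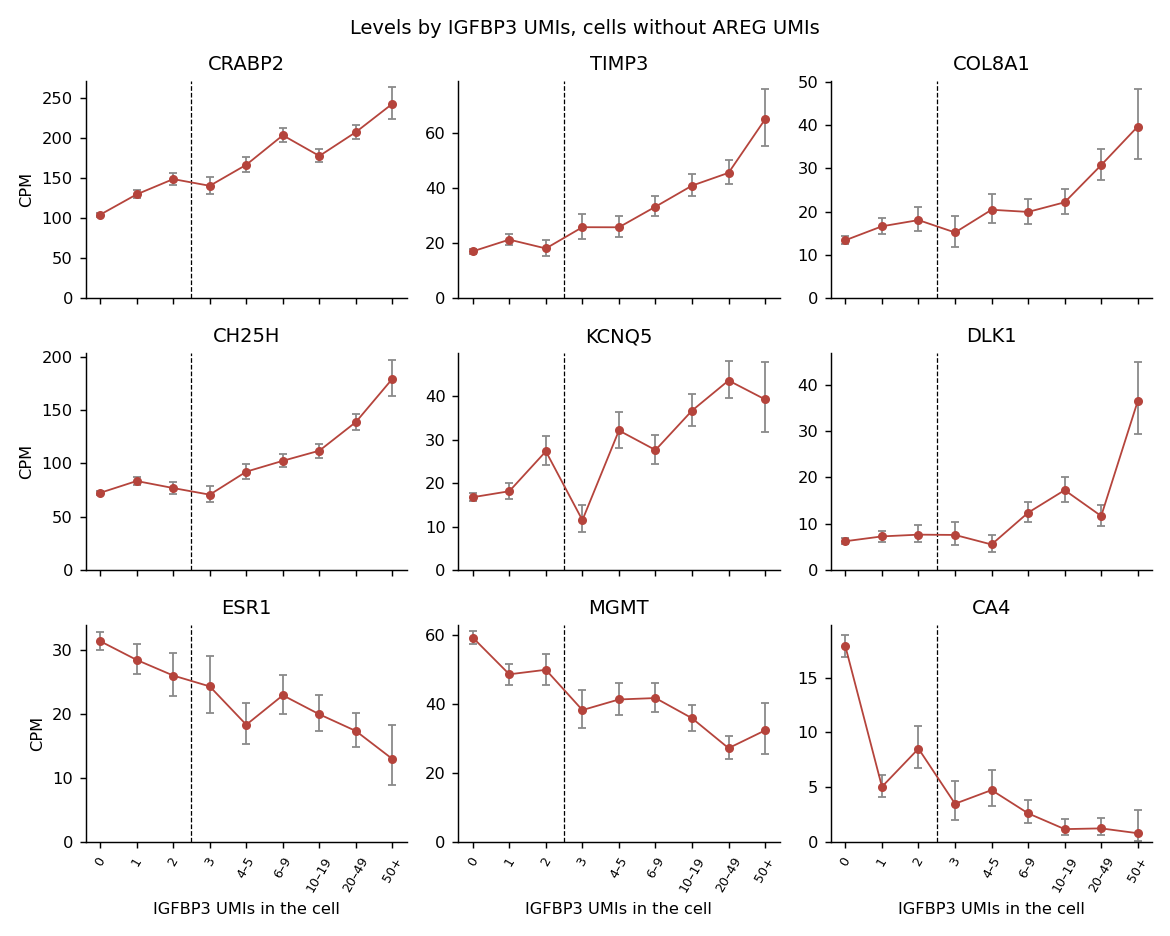
Level of 9 genes, picked after their values were seen (vertical axes, CPM, each from 0) by the number of IGFBP3 UMIs in the cell (horizontal axes, not to scale), for cells of the TGF-β1 library without AREG UMIs. Points are summed over the cells of a class, grey lines are 95% Poisson intervals, and the members lie right of the dashed lines. CRABP2, TIMP3, COL8A1 and CH25H are highest in the cells with 50 or more IGFBP3 UMIs, and ESR1 is lowest there.

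The other genes of the insulin-like growth factor axis that were abundant enough to be compared differed little. Of 24 listed genes these were 14, 8 above and 6 below 0, with a median of 0.01. None was 1.5-fold apart, where 0.25% of all genes were higher and 0.092% lower by more than that factor. Among the ligands, IGF2 was at 2.55 CPM in members, 6.20 CPM in reference cells and 18.7 CPM in the control library. Its ratio was −1.28 (−1.60 to −0.98), and it was lower in each of the 4 clusters at −1.44 to −0.71. IGF2 was too low to be counted among the 14 genes and is named after its values were seen. IGF1 had 12 UMIs in the members and 9 in the reference cells. The receptor IGF1R was at 287 CPM against 292 CPM, a ratio of −0.03 (−0.06 to 0.01). Among the other binding proteins, IGFBP4 was at 74.7 CPM against 95.1 CPM, a ratio of −0.35 (−0.41 to −0.29) with all 4 clusters between −0.41 and −0.27. IGFBP2, the most abundant, was at 1420.4 CPM against 1667 CPM, with clusters from −0.36 to 0.06. IGFBP5 was at 518 CPM against 545 CPM, IGFBP6 at 764 CPM against 757 CPM and IGFBP7 at 259 CPM against 242 CPM. IGFBP5 was below 0 in the whole comparison at −0.08 and above 0 in each of the 4 clusters, at 0.18 to 0.54. PAPPA and HTRA1, proteases that can cleave IGF binding proteins, had ratios of 0.19 (0.13–0.25) and 0.13 (0.10–0.15), with −0.48 to 0.26 and 0.03 to 0.14 in the clusters.

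The list of TGF-β response genes was slightly higher in the members. Of 26 genes compared, 22 were above 0, with a median of 0.12, and only COMP and TIMP3 were more than 1.5-fold higher (0.25% of all genes were). TGFB3, a TGF-β ligand, was at 12.8 CPM against 9.42 CPM, a ratio of 0.45 (0.28–0.61). The median was 0.10 after weighting. In cells with AREG UMIs it was 0.14, against 0.01 over all genes there. Of 16 smooth muscle contractile genes 12 were above 0, with a median of 0.14. ACTA2, the smooth muscle actin of myofibroblasts, was at 5145 CPM in members, 4240.4 CPM in reference cells and 3608 CPM in the control library. Cells with AREG UMIs held 5268 CPM with IGFBP3 and 5023 CPM without, so the ACTA2 level was not particular to the members. The ACTA2 ratio was 0.28 (0.27–0.29), between 0.10 and 0.38 in the clusters and 0.07 (0.06–0.08) in cells with AREG UMIs. CNN1, calponin, was at 490.02 CPM against 411 CPM, a ratio of 0.25 with 0.26 to 0.52 in the clusters, and TPM2, a tropomyosin, had 0.22.

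Collagens differed little. The 8 fibrillar collagens had a median of 0.03, with COL1A1 at 6397 CPM against 5992 CPM and COL1A2 at 5158 CPM against 4847 CPM, both at 0.09, and COL11A1 at −0.33 in the whole comparison but above 0 in each cluster, at 0.07 to 0.53. The 13 other collagens had a median of 0.10, and COL8A1 and COL23A1 were more than 1.5-fold higher (0.25% of all genes were). COL6A3 was at 134 CPM against 104 CPM, a ratio of 0.36 (0.31–0.41). Of 24 collagen modifying enzymes 21 were above 0, with a median of 0.06. LOXL2, which cross-links collagen, had 0.33 (0.30–0.36) and PLOD2, a lysyl hydroxylase, 0.28 (0.25–0.31), whereas ADAMTS3, a procollagen peptidase, had −0.31 and was at 0.03 (−0.07 to 0.13) in cells with AREG UMIs. The 20 genes of proteoglycans and elastic fibres had a median of 0.02, from PODN, podocan, at 0.50 to DCN, decorin, at −0.27. DCN was at 0.08 (0.06–0.10) in cells with AREG UMIs, and FBLN1, fibulin 1, was at 0.32 in the whole comparison and −0.03 to 0.12 in the clusters. The 17 matrix proteases and inhibitors had a median of 0.01, with TIMP3 at the top and ADAMTS12 and PLAT, tissue plasminogen activator, at −0.24 and −0.22.

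Several lists lay below 0. All 12 p53 targets compared were below 0, none of them more than 1.5-fold (0.092% of all genes were), and the counting interval lay below 0 for 11. Their median of −0.20 was −0.22 after weighting, −0.03 in cluster 1, −0.65 in cluster 4, −0.06 in cells with AREG UMIs and 0.02 in the control library. BAX, which permeabilizes mitochondria, was at 1199 CPM against 1542 CPM, a ratio of −0.36 with −0.89 to −0.32 in the clusters and −0.01 (−0.03 to 0.01) in cells with AREG UMIs. CDKN1A, the cell cycle inhibitor p21, had −0.45, from −1.87 in the cluster where it was lowest to 0.19 in the one where it was highest, and TP53INP1 had −0.32. Of 10 interferon response genes 9 were below 0, with a median of −0.20 that was −0.17 after weighting and −0.21 in cells with AREG UMIs. PSMB8, an immunoproteasome subunit, was at 14.9 CPM in members, 21.2 CPM in reference cells and 86.8 CPM in the control library, with a ratio of −0.51 that was −0.22 after weighting, and ISG15 had −0.33. Of 12 mitochondrial transcripts 11 were below 0, with a median of −0.17, and MT-ND3 had −0.46, which was −0.19 after weighting, and MT-ND6 −0.27. The median mitochondrial share of a cell was 1.17% in members and 1.23% in reference cells. Of 22 genes of endometrial stromal identity 16 were below 0, with a median of −0.05, ESR1 at the bottom and GATA6 at 0.18, with −0.14 in cluster 2.

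**Figure D5:**
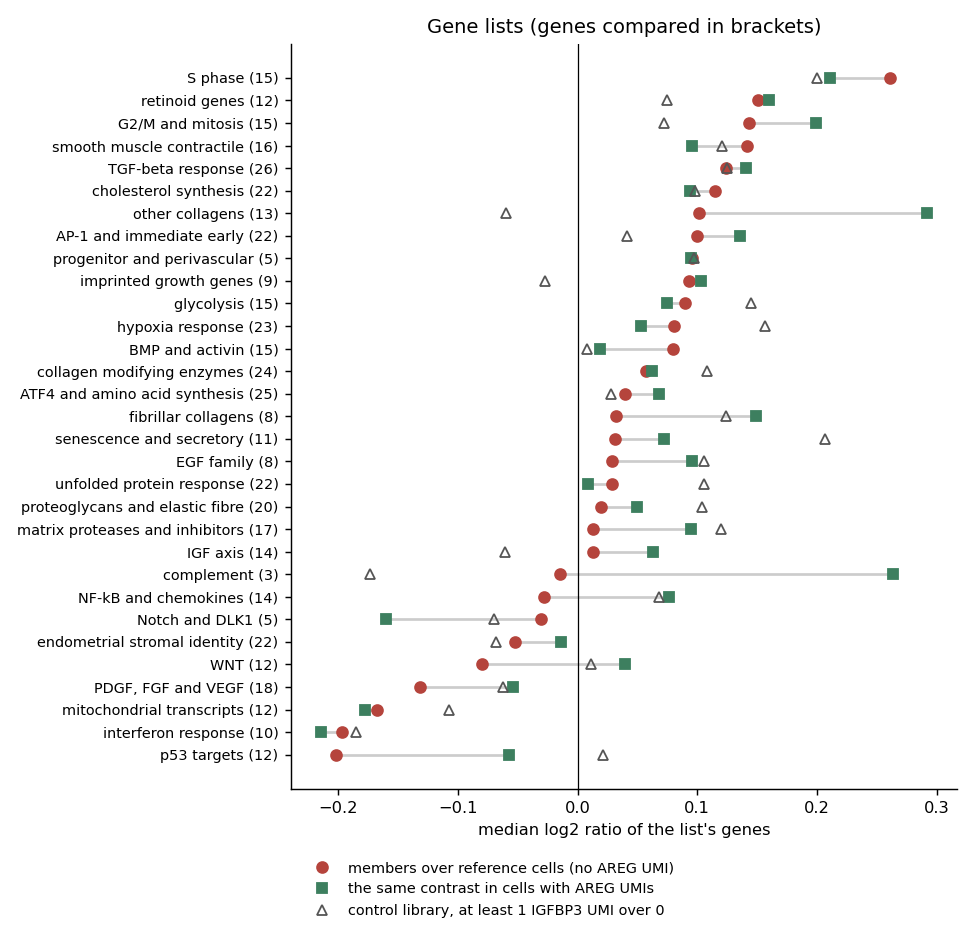
Median log2 ratio (horizontal axis) of the compared genes of each list (number in brackets) for members over reference cells (red circles), for the same contrast in cells with AREG UMIs (green squares), and for control-library cells with at least 1 IGFBP3 UMI over cells with none (grey triangles). S phase lies highest and p53 targets, interferon response and mitochondrial transcripts lie lowest for the members.

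Lists of metabolism and stress were close to 0 or slightly above it. Of 22 genes of cholesterol synthesis 21 were above 0, with a median of 0.11, and DHCR7, which makes the last step to cholesterol, had 0.36 and HSD17B7 0.31, the latter at 0.14 after weighting. In cells with AREG UMIs 21 of the 22 were again above 0, and in the control library all 22 were. Of 15 glycolysis genes 14 were above 0, with a median of 0.09, led by HK1, PGAM1 and PFKP at 0.18, 0.16 and 0.14. The 23 genes of the hypoxia response had a median of 0.08, with P4HA2 at 0.15 and INSIG2 at −0.37. The 25 genes of ATF4 and amino acid synthesis had a median of 0.04, with SLC1A5, a glutamine transporter, at 0.30 and MTHFD1L at 0.23. The 22 genes of the unfolded protein response had a median of 0.03 and lay between −0.03 and 0.12, with CRELD2, EDEM1 and MANF at 0.12, 0.10 and 0.10.

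Growth factor and signaling lists showed members in both directions. The 8 genes of the EGF family, to which AREG belongs, had a median of 0.03. HBEGF, a ligand of the same receptor, was at 64.8 CPM against 51.8 CPM, a ratio of 0.32 (0.25–0.39) that was 0.15 after weighting. NRG1 had 0.31, which was 0.01 after weighting and below 0 in 3 of the 4 clusters. EREG, epiregulin, was at 187 CPM against 204 CPM in the whole comparison but above 0 in each cluster, at 0.21 to 0.53, and at −0.42 (−0.45 to −0.38) in cells with AREG UMIs. The 12 WNT genes had a median of −0.08, with LEF1 at 0.44 and the receptor ROR1 at −0.31. NKD2 was at 0.51, but at 0.08 after weighting, below 0 in 2 of the 4 clusters and at −1.37 in the control library. The 15 genes of BMP and activin had a median of 0.08, with INHBA, the activin A subunit, at 317 CPM against 259 CPM and 0.34 to 0.65 in the clusters, but at −0.07 (−0.11 to −0.04) in cells with AREG UMIs, while the BMP antagonists GREM1 and CHRDL1 had −0.36 and −0.34, which were 0.02 and −0.03 after weighting. Of 18 genes of PDGF, FGF and VEGF 12 were below 0, with a median of −0.13 that was −0.06 after weighting, with ADM lowest and FGF5 and FGF18 at −0.32 and −0.31, which were −0.03 and −0.15 after weighting. The 22 AP-1 and immediate early genes were above 0 in 21 cases, with a median of 0.10, and FOSB, MYC and JUN had 0.35, 0.28 and 0.24, with FOSB at 0.18 after weighting and −0.20 in cluster 4, and MYC at 0.06 (−0.12 to 0.24) in cells with AREG UMIs. The 14 genes of NF-kB and chemokines had a median of −0.03, with the inhibitor NFKBIA at 0.26. PTGS2, which makes prostaglandin precursors, was at −0.43, but at 0.26 in cluster 2 and at −0.07 (−0.17 to 0.02) in cells with AREG UMIs. The 11 senescence and secretory genes had a median of 0.03, with HMGA1 at −0.23. CXCL8 was at −0.24, but at −2.06 in cluster 4 and at 0.11 with that cluster removed. The 3 complement genes compared had a median of −0.02, with CFD at −0.33, CLU at 0.07 and CD81 at −0.02. CFD was at −0.52 after weighting and at 0.30 (0.14–0.46) in cells with AREG UMIs, and CLU was at −0.06 after weighting. The 5 progenitor and perivascular genes had a median of 0.10, with NES, nestin, at 0.44 (0.34–0.55), which was 0.22 after weighting, and THY1 and RGS5 at 0.10.

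The contrast was repeated in the control library, which the rule had not used. Because only 44 control cells met the members' rule, fewer than the 50 set as the minimum, the 440 control cells with at least 1 IGFBP3 UMI and no AREG were set against 3111 control cells with neither. Of the 440 cells, 336 held exactly 1 IGFBP3 UMI, and at equal depth 94.5% of all control cells held none where a Poisson distribution gives 92.8%. The 440 cells were deeper, with a median of 54325.5 against 49184 UMIs in the 3111 cells, and the 44 cells had a median of 62838.5. No weighting by depth or cluster was made in the control library. Of 7712 genes, 18 were more than 1.5-fold higher (0.233%) and 12 lower (0.156%). Of the members' 19 higher genes, 12 were above 0 in the control library (55.3% of all genes were) and 4 were more than 1.5-fold higher. Of the 7 lower genes, 3 were below 0 (44.7% of all genes were) and 0 were more than 1.5-fold lower. COMP at 1.62, RRM2 at 0.87, PI3 at 0.80 and EPHA6 at 0.66 were the 4, named after their values were seen. CRABP2 had 0.34, whereas COL8A1 had −0.17 and KCNQ5 −0.08. Among the 44 control cells with at least 3 IGFBP3 UMIs, 12 of the 19 genes were above 0 (58.8% of all genes were). There 6 of the 19 were more than 1.5-fold higher. Of the genes that reached the 10 CPM limit in this contrast 2.64% were. COMP, KCNQ5, COL8A1 and PI3, among the 6, lay under that limit, at 8.72, 4.52, 6.14 and 4.20 CPM in the 44 cells. The 6 therefore cannot be set against that share. Of the 7 genes, 6 were below 0 (41.2%) and 1 was more than 1.5-fold lower (1.31%). With at least 1 IGFBP3 UMI, the number of genes in the members' direction was thus near the share of all genes. The IGFBP3 level was 26.8 CPM in these 440 control cells against 322 CPM in the members. The 0 of 7 genes past 1.5-fold stood against 0.156%. The 4 of 19 cannot be set against 0.233%, because that share covers only genes that reached the 10 CPM limit in the control library. COMP (1.26 against 0.41 CPM), PI3 (4.57 against 2.62 CPM) and EPHA6 (4.90 against 3.09 CPM) lay under it there.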

How the data were processed

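UMI counts per gene and cell barcode of the control and the TGF-β1 library were used. These deposited counts were made by the authors with Cell Ranger, with EquCab3.0 as genome and Ensembl genes, and are not normalized. Only barcodes that the tool took for cells are in them. The submitters' processing notes name version 7.1.0 and the file header names 8.0.1. The control library held 4384 barcodes and 214282770 UMIs, of which 3865 cells were kept, and the TGF-β1 library held 5124 barcodes and 224189951 UMIs, of which 4513 cells were kept. The study's limits of 20000 UMIs, 3500 genes and 4% mitochondrial UMIs were applied. Its removal of doublets and assignment of cells to mares by genotype rest on the reads and were not repeated.

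UMIs were summed over the members and over the reference cells, without IGFBP3 and AREG, and scaled to CPM. Ratios have no pseudocount. Their 95% intervals are exact conditional binomial intervals, which cover counting error only and are too narrow, since cells vary more than counts do. Genes whose mean of both groups reached 10 CPM were compared, with a limit of 1.5-fold. No test was made, because there was 1 library per condition. Shares of cells with a UMI were taken after thinning each cell to 20000 UMIs. The TGF-β1 library was clustered by the Leiden method with 2000 variable genes, 30 components, 20 neighbours and resolution 0.5, and the clusters were not matched to those of the study. Python 3.11.15, numpy 2.4.6, scipy 1.17.1, pandas 2.3.3, scikit-learn 1.9.0, leidenalg 0.10.2 and matplotlib 3.10.9 were used. The ratio script was tested on simulated data.

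The members and the 31 gene lists were chosen with earlier results of these data known. The text names CRABP2 and DLK1, the 12 genes with a symbol and the largest ratio in either direction, if all 4 clusters with at least 50 cells of each group pointed the same way, and up to 3 genes per list with the largest ratios, and says where a gene was named otherwise. Some genes taken by this rule are not reported here. The genes of the insulin-like growth factor axis were named as members of their list. Alternatives covered the IGFBP3 minimum, AREG, thinning, cell filters, the mean of per-cell CPM, weighting of reference cells by depth or cluster, removal of the deepest, cycling or cluster 4 cells, scaling, the CPM minimum and the fold limit. No comparison columns of the authors and no genome positions were used.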

Additional observations from a re-analysis of the deposited data

Results flagged for a closer look

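For DLK1 and 7 of the 26 genes more than 1.5-fold apart, the difference between cells with and without IGFBP3 UMIs had the opposite direction in the control library. Cells with at least 1 IGFBP3 UMI were used there, 336 of 440 with exactly 1, and the counting interval excluded 0. These control cells were deeper than those without, with a median of 54325.5 against 49184 UMIs, and were weighted neither by depth nor by cluster. In no case was the difference between the libraries tested. CA4, with −2.93 in the TGF-β1 library, had a log2 ratio of 0.67 in the control library (44.2 CPM against 27.7 CPM). ENSECAG00000047497 had −0.99 and 0.46, MGMT −0.71 and 0.061, and H2AC19 −0.63 and 0.31. In the other direction, GRP had 0.78 and −0.23, NLGN1 0.80 and −0.31, and TIMP3 1.13 and −0.28. DLK1 had 1.06 in the TGF-β1 library and −1.07 in the control library, where cells with IGFBP3 held 6.09 CPM and cells without held 12.8 CPM. Among the 44 control cells with at least 3 IGFBP3 UMIs the direction was again opposite to that of the members for CA4 (1.54), GRP (−0.48), NLGN1 (−1.26), TIMP3 (−0.11) and DLK1 (−0.72). It was that of the members for ENSECAG00000047497 (−0.56), MGMT (−0.53) and H2AC19 (−0.06). The intervals of TIMP3 (−0.42 to 0.19) and H2AC19 (−0.35 to 0.22) included 0, and NLGN1 and DLK1 rested on 16 and 24 UMIs in these cells. Outside these, 14 of the other 87 named genes were also opposite by this measure, NKD2 (0.51 and −1.37) among them.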

How the results depend on the processing

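The alternatives with cluster 4 removed, with cells that hold AREG UMIs, and with at least 3 IGFBP3 UMIs in the control library were added after seeing the data. The number of members was 1098 with at least 2 IGFBP3 UMIs, 704 with at least 5 and 1389 with any AREG. The 19 higher genes became 10 with reference cells weighted to the members' clusters, 132 and 2 with minimums of 1 and 50 CPM, 4 at 2-fold, 89 at the lower fold limit and 33 in cells with AREG UMIs. The 7 lower genes became 4 and 13 with at least 2 and 5 UMIs, 11 with any AREG, 15 by the mean of per-cell CPM, 12 and 11 with reference cells weighted to the UMI deciles and to the clusters, 104 and 0 with minimums of 1 and 50 CPM, 2 at 2-fold, 87 at the lower fold limit, 12 without cluster 4 and 18 in cells with AREG UMIs. The DLK1 ratio was 0.80 with any AREG, 1.35 weighted to UMI deciles, 0.50 weighted to clusters and 1.90 in cells with AREG UMIs. The CRABP2 ratio was 0.79 and 0.89 with at least 2 and 5 UMIs, 0.71 with any AREG, 0.44 weighted to clusters, 0.91 without cluster 4 and 1.02 in cells with AREG UMIs. With at least 3 IGFBP3 UMIs the control library gave 204 higher and 101 lower genes from 44 cells. Where a minimum, a fold limit or fewer cells changed a count, that follows from the setting, and otherwise the cause was not tested. Of 1530 values of the other named genes under the alternatives, 1510 kept their sign and 270 left the counting interval, and of 496 list medians 472 kept their sign. Of the genes named by the rule and past the limit, none changed direction under the alternatives within the TGF-β1 library. In the control cells with at least 3 IGFBP3 UMIs some did, GRP (−0.48) and TIMP3 (−0.11) among them. No paired analysis was made, because each condition was 1 library of pooled mares and the cells were not assigned to mares here. Depth limits the genes under 10 CPM, and the spread between mares or cultures is unknown.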
